A study of Homo sapiens with 6 samples.

Results

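Laminins and nidogens are building blocks of the basement membrane, the thin sheet of matrix on which epithelial cells rest and through which carcinoma cells must pass. A laminin is a trimer of an alpha, a beta and a gamma chain. The alpha chain carries the main cell-binding sites, the beta and gamma chains hold the trimer together, and many laminins join into a network under the cell. Nidogens bind the gamma 1 chain and link this network to collagen IV. The alpha 3 and beta 3 chains are part of the laminin that anchors the epidermis and other epithelia through hemidesmosomes, whereas the alpha 5 and alpha 4 chains pair with beta 1 or beta 2 and with gamma 1. The genes described are LAMA3, LAMA4 and LAMA5 (alpha chains), LAMB1, LAMB2 and LAMB3 (beta chains), LAMC1 (gamma chain), and NID1 and NID2 (nidogens). They were chosen by their gene symbols, and all 9 were found among the 61806 genes of the table. The rule took no measured value into account, but the genes were chosen with earlier results of these data known.

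The cells came from MDA-MB-231, a breast cancer line of the triple-negative type, in 3 forms with 2 libraries each: shNC, the control, and shHMGA2-1 and shHMGA2-2, which carry different short hairpin RNAs against HMGA2, a chromatin protein that binds AT-rich DNA. The study asked how lowering HMGA2 changes the mRNAs of these cells. The hairpins were delivered by lentivirus under puromycin selection, and the methods describe growing each knockdown line from a single clone, which is not stated for shNC. Each group was thus a single line, so the hairpin and any other difference between the lines cannot be told apart, and p-values measure only the spread between samples of a line, which may be technical. The library names of the shNC samples read WT, those of the shHMGA2-1 samples carry SH2, and those of the shHMGA2-2 samples name no hairpin. The sample titles were followed.

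Libraries held 16461178 to 17167293 counts, and a floor of 3 counts stood for 0.175 to 0.182 CPM (counts scaled to a common library size). HMGA2 was listed at 8.31 and 8.44 FPKM (counts scaled to exonic size and library total) in shNC, at 3.32 and 3.83 in shHMGA2-1, and at 1.75 and 1.93 in shHMGA2-2. The 2 libraries of each line were not alike to within counting noise (chi-square over degrees of freedom 2.03 in shNC, 6.21 in shHMGA2-1, 2.91 in shHMGA2-2). All 6 mesenchymal-type marker genes of this line (VIM, CD44, ZEB1, AXL, CAV1 and EGFR) were at 1 FPKM or more in every line. ESR1 reached at most 0.05 FPKM and PGR at most 0.01, while EPCAM, KRT8 and KRT18 were present. The summed level of 5 leukocyte markers was 0.09 to 0.29 FPKM, that of 3 endothelial markers 0 to 0.13, and that of 4 fibroblast markers 0.52 to 1.61, with DCN and LUM at 0.

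The start regions of LAMA5, LAMB1, LAMB3 and LAMA3, the laminin genes that were well above the floor and changed at least 2-fold in a knockdown line, are shown first. RefSeq (GRCh38.p14) gave 11 promoter entries for the 9 genes. The 250 bases before the start are printed 5′ to 3′ on the strand of the gene. Capitals mark the AP-1 motif TGANTCA and the GC box GGGCGG or its reverse complement CCGCCC, searched on both strands, with overlapping matches joined. Among 35116 promoters searched over the same length, 6.57% held the AP-1 letters, 42.6% the GC box and 10.7% the letters TATAAA. LAMA5 (chr20:62367313-62367562, minus strand) and LAMB1 (chr7:108003162-108003411, minus strand) are shown because both mRNAs fell in shHMGA2-2.

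LAMA5: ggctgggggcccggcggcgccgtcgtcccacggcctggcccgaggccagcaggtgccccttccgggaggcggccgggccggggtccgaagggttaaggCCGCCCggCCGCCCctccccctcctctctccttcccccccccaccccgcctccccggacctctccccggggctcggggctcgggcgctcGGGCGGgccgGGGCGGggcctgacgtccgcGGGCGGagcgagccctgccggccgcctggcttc
LAMB1: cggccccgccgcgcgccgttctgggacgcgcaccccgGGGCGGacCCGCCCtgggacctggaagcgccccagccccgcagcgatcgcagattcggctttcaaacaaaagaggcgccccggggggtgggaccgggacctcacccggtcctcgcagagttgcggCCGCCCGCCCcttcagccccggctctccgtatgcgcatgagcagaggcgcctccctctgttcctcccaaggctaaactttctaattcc

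The LAMA5 stretch held 5 GC boxes and no AP-1 letters, and 17.2% of its bases were A or T, against a median of 42.0% over all promoters (quartiles 32.0% and 53.6%). Only 1.1% of promoters had a lower share. The LAMB1 stretch held 4 GC boxes and no AP-1 letters, with an A or T share of 29.6%. LAMB3 and LAMA3 are shown because their chains belong to the same laminin and their mRNAs went opposite ways in shHMGA2-2. LAMB3 has several starts, of which the outermost (chr1:209652426-209652675, minus strand) and one that lies 1051 bases further inside the gene (chr1:209651375-209651624, minus strand) are given. The LAMA3 entry (chr18:23872770-23873019, plus strand) belongs to a start 183567 bases inside the gene as the table bounds it.

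LAMB3, outermost start: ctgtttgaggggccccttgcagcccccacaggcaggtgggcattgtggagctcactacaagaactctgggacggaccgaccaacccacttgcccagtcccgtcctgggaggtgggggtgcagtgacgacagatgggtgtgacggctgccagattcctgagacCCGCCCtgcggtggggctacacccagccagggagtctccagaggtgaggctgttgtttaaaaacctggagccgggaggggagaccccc
LAMB3, inner start: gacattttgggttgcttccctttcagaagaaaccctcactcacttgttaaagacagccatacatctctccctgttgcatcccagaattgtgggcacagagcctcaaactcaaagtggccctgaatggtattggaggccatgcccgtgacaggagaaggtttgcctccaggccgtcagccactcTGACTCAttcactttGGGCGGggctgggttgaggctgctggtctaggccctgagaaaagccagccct
LAMA3, inner start: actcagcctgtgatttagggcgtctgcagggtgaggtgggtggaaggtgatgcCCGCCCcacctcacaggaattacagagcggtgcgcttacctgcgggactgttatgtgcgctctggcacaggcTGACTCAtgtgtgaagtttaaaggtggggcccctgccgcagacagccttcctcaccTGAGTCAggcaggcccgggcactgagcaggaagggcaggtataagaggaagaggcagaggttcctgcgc

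The LAMA3 stretch held AP-1 letters at 125 and 69 bases before the start, and the inner LAMB3 stretch held them 67 bases before its start. The outermost LAMB3 stretch had none. None of the 11 entries held TATAAA. LAMC1 (chr1:183023170-183023419, plus strand) had 3 GC boxes and 20.4% A or T, and LAMA4 had neither motif and 51.6% A or T. A match of letters is a description and not a binding site, and FPKM values per gene do not tell which start was used.

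In the control line the laminin chains spanned a wide range of levels on the FPKM scale, which divides by exonic size. LAMC1, the common gamma chain, was highest at 46.9 and 46.7 FPKM, above 96.9% of the genes with an FPKM over 0 in shNC. LAMB3 (29.3 and 30.6 FPKM), LAMB2 (26.3 and 27.4 FPKM), LAMB1 (12.3 and 12.1 FPKM), LAMA5 (7.70 and 8.38 FPKM) and LAMA3 (3.84 and 3.45 FPKM) followed in that order, with no overlap between neighbours. NID2, LAMA4 and NID1 lay at 0.04 FPKM or lower and overlapped each other. In shHMGA2-1 the order was LAMC1, LAMB2, LAMB1, LAMB3, LAMA5 and LAMA3, and the ranges of LAMB3 and LAMA5 overlapped. In shHMGA2-2 it was LAMB3, LAMC1, LAMB2, LAMB1, LAMA3, LAMA5, LAMA4, NID2 and NID1. LAMB3 ranked below LAMC1, LAMB2 and LAMB1 in shHMGA2-1 and above them in shHMGA2-2, while LAMA5 fell below LAMA3. These orders rest on exonic sizes of 18592 bases for LAMB1, 6865 for LAMB2 and 4647 for LAMB3. By raw counts the beta chain order in shNC was the reverse. There LAMB1 held 41.2% of the beta chain counts, LAMB2 33.5% and LAMB3 25.3%.

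**Figure D1:**
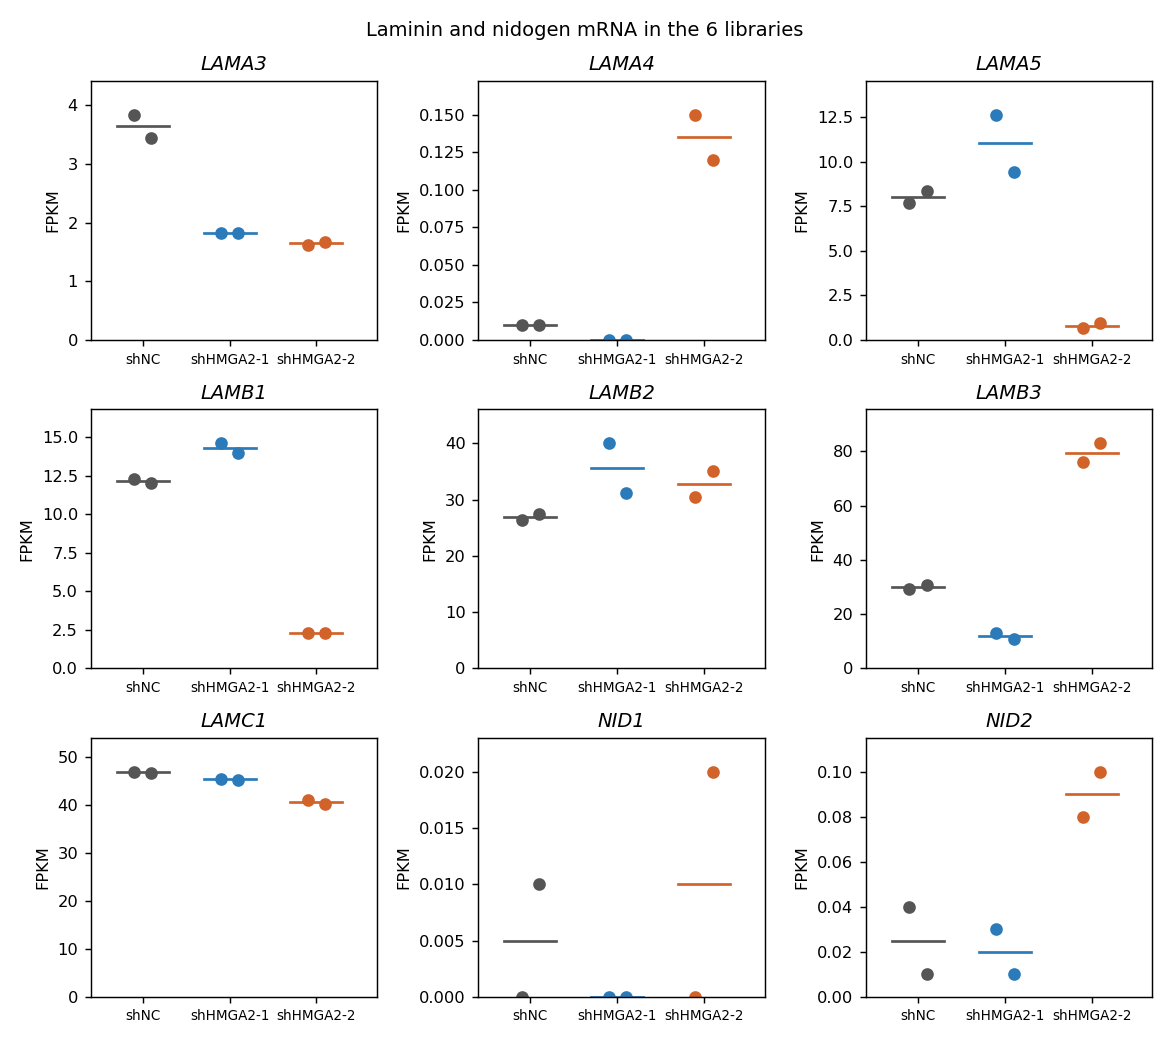
FPKM (vertical axis, linear, a different scale for each gene) of the 9 genes in each library, grouped by line on the horizontal axis. Points are libraries and the bar is the mean of the 2 libraries. LAMB3 sits at 75.9 and 83.0 FPKM in shHMGA2-2 against 12.9 and 10.8 in shHMGA2-1, and LAMA5 and LAMB1 are low in shHMGA2-2 only among the lines.

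Of the 9 genes, 7 had enough counts to be tested. NID1 and NID2 did not pass the filter on low counts. LAMA4 passed it only through its counts in shHMGA2-2, the line in which it was high, so its test is not used as support and it is left out of the counts that follow, which cover the other 6. A gene passed when the edgeR test (quasi-likelihood) gave it an adjusted p below 0.05. A passing gene with a change of at least 2-fold is called a DEG. In shHMGA2-1 against shNC, 2 laminin genes fell (LAMA3 and LAMB3) and 3 rose (LAMA5, LAMB1 and LAMB2). Among all 16110 genes tested, 17.6% fell and 15.8% rose. LAMA3 and LAMB3 were also DEGs, in a direction in which 3.59% of all genes were DEGs, but LAMA3 lay at the 2-fold limit and was no DEG with either limma fit or without shNC replicate 1, and no laminin gene was a DEG in the upward direction, against 4.89% of all genes. In shHMGA2-2 against shNC, 4 fell (LAMA3, LAMA5, LAMB1 and LAMC1) and 1 rose (LAMB3), where 29.2% of all genes fell and 29.5% rose. Of these, 3 were DEGs downward and 1 upward, against 9.65% and 11.7% of all genes. LAMA3, counted downward, was no DEG with limma on log2(FPKM + 1). With so many genes passing in this line, passing alone sets no gene apart. The median log2 fold change of these 6 genes was 0.03 in shHMGA2-1 and -0.80 in shHMGA2-2, beside 0.01 and 0.03 over all genes. Both comparisons use the same shNC libraries.

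**Figure D2:**
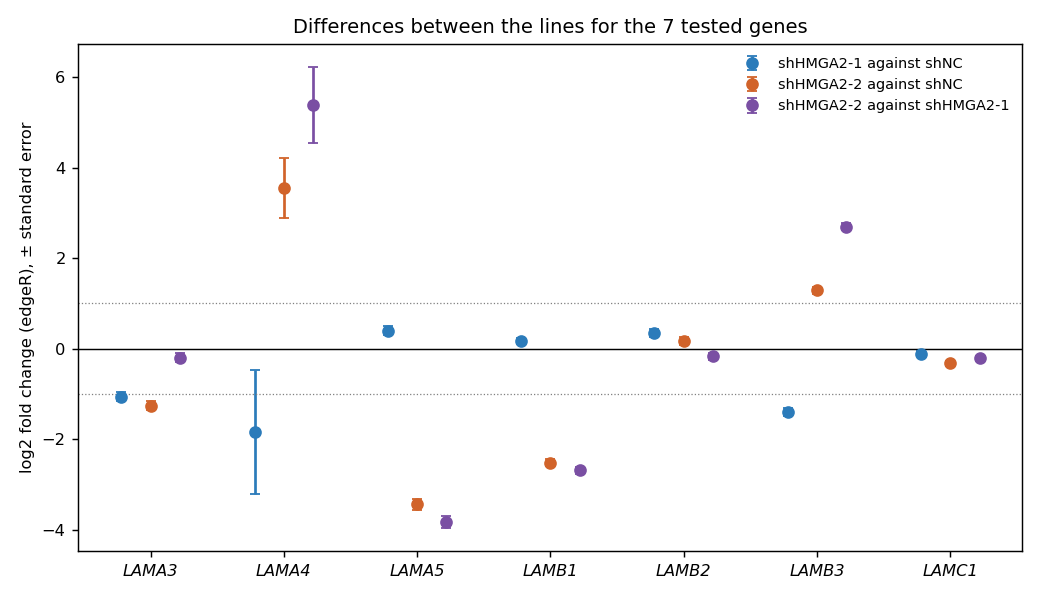
Log2 fold change from edgeR (vertical axis) with its standard error for the 7 tested genes (horizontal axis) in the comparisons of each knockdown line with shNC and of shHMGA2-2 with shHMGA2-1. Dotted lines mark 2-fold. LAMA4 entered the test only through its counts in shHMGA2-2. LAMA3 is at -1.06 and -1.27 in the knockdown lines, whereas LAMB3 is at -1.40 in shHMGA2-1 and 1.29 in shHMGA2-2.

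Among the alpha chains, LAMA3 (ENSG00000053747, chr18:23689453-23956222, plus strand), the alpha chain of the epithelial anchoring laminin, was lower in both knockdown lines. It was listed at 3.84 and 3.45 FPKM in shNC, at 1.82 and 1.82 in shHMGA2-1, and at 1.62 and 1.67 in shHMGA2-2. All 4 knockdown libraries lay below both control libraries. In CPM after TMM scaling this was 55.2 ± 4.20 (SD, n = 2) in shNC, 26.4 ± 0.368 in shHMGA2-1 and 22.9 ± 0.171 in shHMGA2-2. The fall was 2.09-fold in shHMGA2-1 (log2 fold change -1.06, standard error 0.10, edgeR adjusted p = 4.9e-09) and 2.41-fold in shHMGA2-2 (log2 fold change -1.27, standard error 0.10, edgeR adjusted p = 6.99e-11). The fall in shHMGA2-1 passed under every alternative run but came below 2-fold without shNC replicate 1 (log2 fold change -0.99) and with limma on log2(FPKM + 1) (-0.72) and log2(FPKM + 0.1) (-0.96). The fall in shHMGA2-2 came below 2-fold with limma on log2(FPKM + 1) (log2 fold change -0.81). The difference between the knockdown lines was -0.20 on the log2 scale and did not pass (standard error 0.10, edgeR adjusted p = 0.111).

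LAMA5 (ENSG00000130702, chr20:62307955-62367312, minus strand) encodes the alpha chain found most widely in adult epithelial basement membranes. It was listed at 7.70 and 8.38 FPKM in shNC, at 12.6 and 9.45 in shHMGA2-1, and at 0.69 and 0.92 in shHMGA2-2. Both shHMGA2-2 libraries lay far below the other 4, and both shHMGA2-1 libraries lay above shNC. Against shNC its CPM fell 10.9-fold in shHMGA2-2, from 120.0 ± 7.27 to 11.04 ± 1.99 (SD, n = 2), with a log2 fold change of -3.44 (standard error 0.13, edgeR adjusted p = 3.93e-17). In shHMGA2-1 it was 158 ± 30.1 CPM, a 1.31-fold rise (log2 fold change 0.39, standard error 0.10, edgeR adjusted p = 0.0034). This rise did not pass without shHMGA2-1 replicate 1 (log2 fold change 0.18, edgeR adjusted p = 0.0713) or without shNC replicate 1 (0.33, edgeR adjusted p = 0.103), nor with limma. The change in shHMGA2-2 kept its call under every alternative run.

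LAMA4 (ENSG00000112769, chr6:112107931-112254939, minus strand), the alpha chain of vessels, fat and muscle, was close to the floor except in shHMGA2-2. The shNC libraries held 2 and 2 counts, shHMGA2-1 had 1 and 0, and shHMGA2-2 had 29 and 23. The counts of both shHMGA2-2 libraries lay above the floor of 3, and no other library did. Scaled to the library totals, shHMGA2-2 held 13.4 times the shNC level, with a 95% exact interval of 4.91 to 50.9 for counting error. Against shHMGA2-1, with 1 count in all, the ratio was 54.0 (9.27 to 2172). No p-value is given, since the gene entered the test only through the counts in which it was high. Even in shHMGA2-2 its level of 0.15 and 0.12 FPKM was far below those of LAMA3 and LAMA5. Over all 6 libraries, the summed level of 3 endothelial markers reached up to 0.13 FPKM and that of 4 fibroblast markers up to 1.61. The source of the LAMA4 reads was not tested.

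Among the beta chains, LAMB3 (ENSG00000196878, chr1:209614870-209652425, minus strand), the partner of LAMA3 in the anchoring laminin, was listed at 29.3 and 30.6 FPKM in shNC, at 12.9 and 10.8 in shHMGA2-1, and at 75.9 and 83.0 in shHMGA2-2. The 3 lines did not overlap, with shNC between the knockdown lines. On the CPM scale the means were 145 ± 4.58, 55.0 ± 6.15 and 355 ± 16.7 (SD, n = 2). Against shNC it fell 2.64-fold in shHMGA2-1 (log2 fold change -1.40, standard error 0.08, edgeR adjusted p = 1.15e-12) and rose 2.45-fold in shHMGA2-2 (log2 fold change 1.29, standard error 0.07, edgeR adjusted p = 2.14e-13). The direct comparison of shHMGA2-2 with shHMGA2-1 gave a 6.46-fold higher level (log2 fold change 2.69, standard error 0.08, edgeR adjusted p = 1.18e-18).

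LAMB1 (ENSG00000091136, chr7:107923799-108003213, minus strand), the beta chain of many early and widespread laminins, was listed at 12.3 and 12.1 FPKM in shNC, at 14.6 and 14.0 in shHMGA2-1, and at 2.31 and 2.31 in shHMGA2-2. Both shHMGA2-2 libraries lay below the other 4. The CPM fell 5.72-fold, from 236 ± 3.09 in shNC to 41.3 ± 0.672 in shHMGA2-2 (log2 fold change -2.52, standard error 0.07, edgeR adjusted p = 5.41e-19). In shHMGA2-1 it was 1.12-fold higher than in shNC (log2 fold change 0.17, standard error 0.06), with an edgeR adjusted p of 0.0488 that did not pass in 9 of 13 alternatives, where it reached up to 0.289.

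LAMB2 (ENSG00000172037, chr3:49121114-49133118, minus strand), the beta chain of synaptic, kidney and vascular laminins, had the narrowest range of line means among the beta chains. It was listed at 26.3 and 27.4 FPKM in shNC, at 40.0 and 31.3 in shHMGA2-1, and at 30.6 and 35.1 in shHMGA2-2. All 4 knockdown libraries lay above shNC, and the knockdown lines overlapped. It rose 1.27-fold in shHMGA2-1 (log2 fold change 0.34, standard error 0.08, edgeR adjusted p = 0.00258), a call lost without shHMGA2-1 replicate 1 (0.17, edgeR adjusted p = 0.0522), without shNC replicate 1 (0.31, edgeR adjusted p = 0.0702) and with limma. The difference in shHMGA2-2 was 0.17 on the log2 scale (standard error 0.08, edgeR adjusted p = 0.0873) and did not pass. It did pass with library totals (0.29, edgeR adjusted p = 0.00905) and when shHMGA2-1 replicate 1 or 2 was left out (0.17 in both, edgeR adjusted p = 0.00773 and 0.00771).

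LAMC1 (ENSG00000135862, chr1:183023420-183145592, plus strand) had a range of line means in log2 CPM (0.326) close to that of LAMB2 (0.333). The other tested genes described had wider ranges. LAMC1 was listed at 46.9 and 46.7 FPKM in shNC, at 45.3 and 45.2 in shHMGA2-1, and at 41.0 and 40.1 in shHMGA2-2. The lines did not overlap, yet they spanned a small range. Its CPM fell 1.25-fold in shHMGA2-2 against shNC (log2 fold change -0.33, standard error 0.06, edgeR adjusted p = 5.96e-05). In shHMGA2-1 the log2 difference was -0.11 (standard error 0.06, edgeR adjusted p = 0.165) and did not pass.

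The nidogens were hardly detected. NID1 (ENSG00000116962, chr1:235975830-236065109, minus strand) was counted 0 and 1 times in shNC, not at all in shHMGA2-1, and 0 and 2 times in shHMGA2-2, all at or under the floor, so no fold is given. NID2 (ENSG00000087303, chr14:52004809-52069059, minus strand) was counted 4 and 1 times in shNC, 3 and 1 times in shHMGA2-1, and 8 and 10 times in shHMGA2-2. Both shHMGA2-2 libraries lay above the other 4. Its scaled count in shHMGA2-2 was 3.70 times that in shNC, with a 95% exact counting interval of 1.32 to 12.7, and 4.67 times that in shHMGA2-1 (1.54 to 19.0). These intervals cover counting error and not the spread between cultures. In shHMGA2-2, LAMC1 stood at 41.0 and 40.1 FPKM beside 0.08 and 0.10 FPKM for NID2.

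Compared directly, shHMGA2-2 differed from shHMGA2-1 in 4 of the 6 tested genes described other than LAMA4. LAMA5 (log2 fold change -3.83, 14.2-fold lower), LAMB1 (-2.69, 6.43-fold lower) and LAMC1 (-0.21, 1.16-fold lower) were lower, and LAMB3 was higher. Over all genes 25.7% were lower and 24.5% higher, and DEGs made up 7.27% downward and 7.83% upward. LAMA5, LAMB1 and LAMB3 were DEGs. The LAMC1 difference (edgeR adjusted p = 0.00478) was lost without shHMGA2-2 replicate 2 (edgeR adjusted p = 0.0701). With the shHMGA2 libraries pooled against shNC (4 against 2), in which the difference between the knockdown lines counts as spread, LAMA3 alone passed among the laminin genes, at a log2 fold change of -1.16 (standard error 0.11, edgeR adjusted p = 0.00722). It did not pass without shNC replicate 1 or 2 (edgeR adjusted p = 0.127 and 0.103). In that comparison 2.92% of all genes fell and 2.34% rose. LAMA5 (-0.51, edgeR adjusted p = 0.801), LAMB1 (-0.62, edgeR adjusted p = 0.664) and LAMB3 (0.50, edgeR adjusted p = 0.747) did not pass.

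The make-up of the chains, as shares of summed FPKM per library, followed these changes and is given as a description. LAMA5 made up 67.8% ± 3.05 (SD, n = 2) of the alpha chain mRNA in shNC, 83.8% ± 3.32 in shHMGA2-1 and 28.7% ± 3.06 in shHMGA2-2, where LAMA3 held 59.2% ± 4.43. The sum over all alpha chains was 11.7 to 12.0 FPKM in shNC, 11.6 to 14.7 in shHMGA2-1 and 2.60 to 2.98 in shHMGA2-2. The larger LAMA3 share in shHMGA2-2 was thus a share of a smaller sum, since LAMA3 itself was lower there than in shNC. LAMB3 held 43.4% ± 0.351 of the beta chain mRNA in shNC, 19.2% ± 0.106 in shHMGA2-1 and 69.4% ± 0.611 in shHMGA2-2. Not divided by exonic size, its share of the counts was 25.3%, 9.72% and 57.9%. The count share of LAMB1 was 41.2%, 47.2% and 6.75%, so by counts LAMB1 exceeded LAMB3 in shNC. The ratio of LAMB3 to LAMB1 in FPKM was 2.38 and 2.53 in the shNC libraries, 0.882 and 0.771 in those of shHMGA2-1, and 32.9 and 35.9 in those of shHMGA2-2. These are mRNA shares, and which trimers were made was not measured.

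Of the other laminin chain genes, LAMA1 and LAMA2 were tested. LAMA2, the muscle alpha chain, was counted 11 and 11 times in shNC, 7 and 16 times in shHMGA2-1, and 31 and 41 times in shHMGA2-2, a rise of 1.62 on the log2 scale in shHMGA2-2 (edgeR adjusted p = 0.00314, DESeq2 adjusted p = 0.0508). LAMA1, the embryonic alpha chain, was counted 43 and 33 times in shNC, 52 and 78 times in shHMGA2-1, and 19 and 48 times in shHMGA2-2, and passed in neither line against shNC. Between the knockdown lines, LAMA2 was 3.10-fold higher in shHMGA2-2 (edgeR adjusted p = 0.00337, DESeq2 adjusted p = 0.0516). LAMA1 was lower there, at a log2 difference of -0.96 (edgeR adjusted p = 0.0178, DESeq2 adjusted p = 0.126). LAMB4 and LAMC3 had at most 5 counts in any library and were not tested.

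Of 26 other basement membrane genes, 18 were tested. In shHMGA2-1, 6 fell, 9 rose and 3 did not pass, and in shHMGA2-2, 4 fell, 9 rose and 5 did not pass. Of all genes 17.6% fell and 15.8% rose in shHMGA2-1, and 29.2% and 29.5% in shHMGA2-2. With limma the genes that passed in shHMGA2-1 numbered 8 and 9 instead of 15. NTN1 and COL4A6, each counted among those that rose in 1 line, passed the filter on low counts only through that line. The median log2 fold change was 0.15 and 0.43, beside 0.01 and 0.03 over all genes. COL17A1, a hemidesmosome collagen, was counted 64 and 77 times in shNC, 27 and 38 times in shHMGA2-1, and 246 and 221 times in shHMGA2-2. It fell 2.28-fold in shHMGA2-1 (edgeR adjusted p = 0.000463, but 0.08 with limma on log2(FPKM + 1)) and rose 3.13-fold in shHMGA2-2 (edgeR adjusted p = 3.32e-08). COL7A1, the collagen of anchoring fibrils, named after its values were seen, fell 2.03-fold in shHMGA2-1 (edgeR adjusted p = 1.61e-05) and rose 1.64-fold in shHMGA2-2 (edgeR adjusted p = 8.97e-05). Both took the directions that LAMB3 took in each line.

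NTN4, a netrin that binds laminin gamma chains and hinders laminin assembly, was listed at 21.0 and 22.3 FPKM in shNC, at 25.4 and 27.8 in shHMGA2-1, and at 0.35 and 0.61 in shHMGA2-2. It fell 49.0-fold in shHMGA2-2 (log2 fold change -5.62, edgeR adjusted p = 5.35e-20). NTN1, another netrin, went from 2 and 0 counts in shNC and 1 and 1 in shHMGA2-1 to 56 and 49 in shHMGA2-2, a ratio to shNC of 53.9 (95% exact counting interval 14.6 to 451). FBLN1, a fibulin of the matrix, was at a log2 fold change of -3.70 in shHMGA2-2 (edgeR adjusted p = 1.29e-11) and -0.58 in shHMGA2-1 (edgeR adjusted p = 0.0159). TINAGL1 fell 2.24-fold in shHMGA2-1 (edgeR adjusted p = 3.65e-08) and did not pass in shHMGA2-2. The collagen IV chains went both ways. COL4A5 rose 3.49-fold in shHMGA2-1 (edgeR adjusted p = 6.69e-11). COL4A6 had 2 and 2 counts in shNC and 52 and 39 in shHMGA2-1, a ratio of 22.5 (95% exact counting interval 8.503 to 84.5). The main chains COL4A1 and COL4A2, to which nidogens link laminin, were named after their values were seen. COL4A1 rose 1.37-fold in shHMGA2-1 (edgeR adjusted p = 6.24e-05) and 1.81-fold in shHMGA2-2 (edgeR adjusted p = 8.24e-10). COL4A2 rose 1.39-fold (edgeR adjusted p = 3.61e-06) and 1.57-fold (edgeR adjusted p = 6.47e-09). COL4A4, also named after its values were seen, fell from 64 and 68 counts in shNC to 39 and 36 in shHMGA2-1 (1.86-fold, edgeR adjusted p = 0.016, but 0.149 with DESeq2 and 0.0593 to 0.0956 without either shNC library or shHMGA2-1 replicate 2) and 10 and 7 in shHMGA2-2 (8.10-fold, edgeR adjusted p = 1.16e-07).

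All 14 laminin receptor genes were tested. In shHMGA2-1, 8 fell, 3 rose and 3 did not pass, and in shHMGA2-2, 9 fell and 5 rose, where of all genes 17.6% fell and 15.8% rose in shHMGA2-1, and 29.2% and 29.5% in shHMGA2-2. With limma on log2(FPKM + 1), 7 instead of 11 passed in shHMGA2-1. The median log2 fold change was -0.31 and -0.41, beside 0.01 and 0.03 over all genes. ITGA1 and ITGA2, integrin alpha chains that bind collagens and laminins, fell in both lines. ITGA2 was listed at 19.2 and 19.5 FPKM in shNC, at 7.26 and 7.82 in shHMGA2-1, and at 5.29 and 5.31 in shHMGA2-2, and fell 2.69-fold (edgeR adjusted p = 6.84e-13) and 3.97-fold (edgeR adjusted p = 2.72e-16). ITGA1 fell 3.17-fold in shHMGA2-1 (edgeR adjusted p = 3.71e-11) and 4.92-fold in shHMGA2-2 (edgeR adjusted p = 4.74e-14). ITGB1, their shared beta chain, named after its values were seen, fell 2.76-fold in shHMGA2-2 (edgeR adjusted p = 1.27e-16) from 256 and 256 FPKM to 103 and 97.8. In shHMGA2-1 it fell 1.17-fold (edgeR adjusted p = 0.00293), a call lost with limma.

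ITGB4, the beta chain of the hemidesmosome integrin, was listed at 1.43 and 1.37 FPKM in shNC, at 11.1 and 9.14 in shHMGA2-1, and at 3.37 and 3.06 in shHMGA2-2. It rose 6.91-fold in shHMGA2-1 (edgeR adjusted p = 5.96e-15), where LAMB3 fell, and 2.12-fold in shHMGA2-2 (edgeR adjusted p = 1.13e-07). Its alpha partner ITGA6, named after its values were seen, fell in both lines, 1.97-fold in shHMGA2-1 (edgeR adjusted p = 5.64e-11) and 1.39-fold in shHMGA2-2 (edgeR adjusted p = 2.05e-06). ITGA7, an alpha chain known from muscle, rose 4.27-fold in shHMGA2-1 (edgeR adjusted p = 6.91e-08) and 1.86-fold in shHMGA2-2 (edgeR adjusted p = 0.00362). Of the receptors that are not integrins, SDC2 fell 5.81-fold in shHMGA2-2 (edgeR adjusted p = 1.45e-15) and 1.25-fold in shHMGA2-1 (edgeR adjusted p = 0.0106). SDC4, also a syndecan, rose 3.81-fold in shHMGA2-2 (edgeR adjusted p = 1.15e-17) and fell 1.24-fold in shHMGA2-1 (edgeR adjusted p = 0.000737). MCAM, a cell surface receptor that binds the alpha 4 chain, was listed at 0.52 and 0.39 FPKM in shNC, at 0.36 and 0.39 in shHMGA2-1, and at 6.36 and 7.14 in shHMGA2-2. It rose 13.6-fold in shHMGA2-2 (edgeR adjusted p = 1.27e-16), the line in which LAMA4 was counted above the floor.

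**Figure D3:**
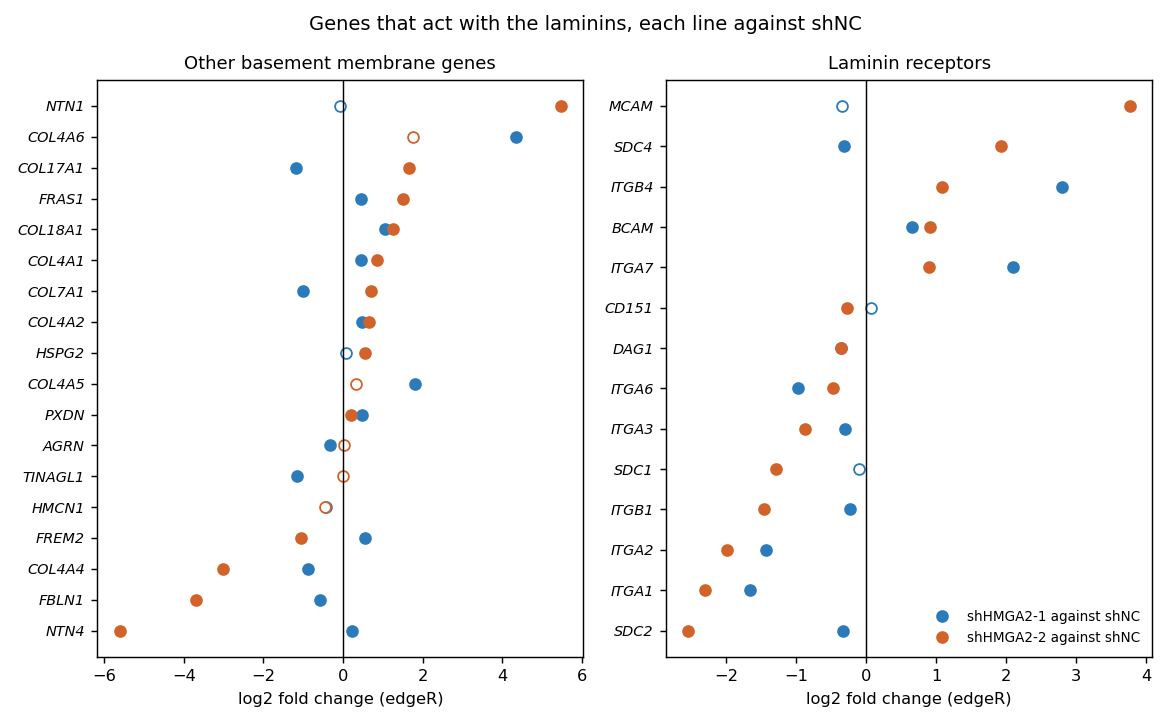
Log2 fold change from edgeR (horizontal axis) against shNC of the 18 tested other basement membrane genes and the 14 laminin receptor genes (vertical axis) in shHMGA2-1 (blue) and shHMGA2-2 (orange). Filled points passed and open points did not. COL17A1 lies at -1.19 in shHMGA2-1 and 1.65 in shHMGA2-2, and ITGA1 and ITGA2 lie below 0 in both lines.

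Of 9 genes for proteases that process laminins, 5 were tested, and 2 fell, 2 rose (PLAU and TLL2) and 1 did not pass in each line. Over all genes 17.6% fell and 15.8% rose in shHMGA2-1, and 29.2% and 29.5% in shHMGA2-2. PLAU, the urokinase plasminogen activator, rose 3.06-fold in shHMGA2-1 (edgeR adjusted p = 3.27e-14) and 3.53-fold in shHMGA2-2 (edgeR adjusted p = 3.79e-16). TLL2, a protease of the BMP1 family, went from 5 and 1 counts in shNC to 29 and 17 in shHMGA2-1 and 15 and 28 in shHMGA2-2, and passed the filter on low counts only through the knockdown lines. MMP14, a membrane-bound metalloproteinase, fell 1.66-fold (edgeR adjusted p = 5.94e-09) and 1.53-fold (edgeR adjusted p = 2.67e-08). PLAT, the tissue plasminogen activator, fell 1.94-fold in shHMGA2-2 (edgeR adjusted p = 7.2e-08) and 1.27-fold in shHMGA2-1 (edgeR adjusted p = 0.0157), the latter a call lost without shNC replicate 1 (edgeR adjusted p = 0.187), with DESeq2 and with limma. These lists overlap in no gene with the 9 described, and in this bulk RNA fewer cells of a kind and less RNA per cell cannot be told apart.

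Among the 7 tested genes described, LAMA5 had the widest range between line means of log2 CPM with 0.5 CPM added (3.77). The 5 tested genes with the most similar profile, by Euclidean distance of centred log2 CPM over the 6 libraries, were KISS1 (0.436), NPAS2-AS1 (0.597), C4BPB (0.667), WNT5A (0.706) and ENSG00000283162 (0.719). KISS1, which encodes the kisspeptin peptides, was at 17.1 ± 1.26 CPM in shNC, 29.0 ± 6.76 in shHMGA2-1 and 1.22 ± 0.303 in shHMGA2-2 (SD, n = 2). WNT5A, a secreted signalling protein, was at 15.8 ± 0.647, 16.0 ± 2.43 and 0.639 ± 0.151 CPM.

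Several of the genes share sequence positions with a gene on the other strand, and the strand setting of the counting is not given in the sources used here. ADRM1 overlaps LAMA5 at its end and was counted 2058 and 2156 times in shNC, 2617 and 2255 times in shHMGA2-1, and 3295 and 3570 times in shHMGA2-2, so it was higher where LAMA5 was low (log2 fold change 0.62 in shHMGA2-2, edgeR adjusted p = 9.64e-08). DLD, which overlaps the end of LAMB1, was also higher in shHMGA2-2 (0.58, edgeR adjusted p = 2.05e-07). ENSG00000273055, inside LAMB1, moved with it, from 49 and 39 counts in shNC to 6 and 11 in shHMGA2-2 (-2.44, edgeR adjusted p = 2.69e-05). LAMC1-AS1, with 15 to 57 counts per library, was lower in shHMGA2-2 (-1.57, edgeR adjusted p = 0.00287). RTRAF, which overlaps NID2, held 2141 to 2636 counts per library and passed in neither line. Without a known strand setting, reads from such pairs cannot be told apart where they overlap.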

How the data were processed

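RNA from 2 samples each of shNC, shHMGA2-1 and shHMGA2-2 MDA-MB-231 cells was sequenced after mRNA capture. The authors deposited a table of raw counts per gene, which were not normalized, and FPKM values, which they made from the counts, exonic sizes and library totals. FPKM recomputed from the counts matched the table within 0.0051 for 100.0% of values. The submitters' processing notes name HISAT2 (version 2.2.1), HTSeq (version 0.6.1) and GRCh38.p13. Sample columns not used numbered 0.

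Counts were tested with edgeR (version 4.0.16) in R (version 4.3.3), using TMM normalization (factors 0.958 to 1.05), filterByExpr and the quasi-likelihood test in a model with 3 groups, with Benjamini-Hochberg adjustment over 16110 genes. For the 4 shHMGA2 libraries against shNC a model with 2 groups was fitted. The study names DESeq2, which was run as an alternative (version 1.42.0), beside limma (version 3.58.1) on log2(FPKM + 1) and log2(FPKM + 0.1) for genes at 0.5 FPKM or more on average, RLE factors, library totals, no filter, a replicate block and each library left out. The scripts were tested on simulated data. Count ratios of low genes carry exact 95% binomial intervals, which, like the floor of 3 counts, cover counting error only.

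The genes described and all lists were chosen with earlier results of these data known. The text names the 9 genes, HMGA2, other laminin chains, the 2 genes of each other list that fell and the 2 that rose most in each line among those that passed, the 5 genes closest to LAMA5, and overlapping genes. COL4A1, COL4A2, COL4A4, COL7A1, ITGA6, ITGB1 and the genes beside LAMB3 were named after their values were seen. Some items are not reported here. Promoter sequences are from RefSeq (GRCh38.p14).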

Additional observations from a re-analysis of the deposited data

Results flagged for a closer look

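Among the 6 tested genes described other than LAMA4, the responses of 4 differed between the knockdown lines by a direct test (edgeR's quasi-likelihood test, shHMGA2-2 against shHMGA2-1). The log2 differences were -3.83 for LAMA5 (edgeR adjusted p = 8.22e-18), -2.69 for LAMB1 (edgeR adjusted p = 2.68e-19), 2.69 for LAMB3 (edgeR adjusted p = 1.18e-18) and -0.21 for LAMC1 (edgeR adjusted p = 0.00478). LAMB3 is the gene among these that passed in opposite directions against shNC in the 2 lines at 2-fold or more. LAMA4 also had a fitted difference of 5.38, from 52 counts against 1, but it entered the test only through its counts in shHMGA2-2, so this is a description and not a tested difference.

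Among the 4 shHMGA2 libraries, 1 stood apart for NID1, with a gap to the nearest library of 1 times the whole range. Its 2 counts lie under the floor of 3, and the other shHMGA2 libraries had 0. Chance flags about 1 in 20 groups in general. With the other libraries at 0, any count above 0 gives this gap, so that rate does not apply here.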

How the results depend on the processing

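Over the alternatives, 336 of the values for single laminin genes kept their direction and their side of the threshold, 20 no longer passed, 6 newly passed and 1 reversed, which was LAMB2 in shHMGA2-2 against shHMGA2-1 (0.0006084 without shHMGA2-1 replicate 1, range with a library left out -0.3278 to 0.0006084). LAMA5 and LAMB1 in shHMGA2-2, and LAMA3 and LAMB3 in both knockdown lines, passed in all alternatives. LAMA3 was not always a DEG in either line. The counts here include LAMA4 where it was tested. It kept its calls in every fit that held it, but it passed the filter on low counts only through shHMGA2-2. Its unchanged values are therefore no support. Laminin genes that passed in shHMGA2-1 against shNC numbered 5, and 3 with limma on log2(FPKM + 1) and on log2(FPKM + 0.1), which left LAMA4 out. DEGs numbered 2, and 1 with either limma fit, LAMA3 being the gene lost. The limma fits change the test, the scaling and the pseudocount together. In shHMGA2-2 against shNC, DEGs went from 5 to 3 with limma on log2(FPKM + 1). That fit left LAMA4 out and put LAMA3 below 2-fold (log2 fold change -0.81). For the 4 shHMGA2 libraries against shNC, DEGs went from 1 to 0 with limma on log2(FPKM + 1). With a library left out, a lone sample being assumed to vary like the other groups, passing genes ranged from 2 to 5 and DEGs from 1 to 2 in shHMGA2-1, and both from 0 to 1 for the 4 libraries together, where both were 0 without shNC replicate 1 or without shNC replicate 2. The 2 passing genes came without shNC replicate 1 or without shHMGA2-1 replicate 1, and the single DEG, again with LAMA3 lost, without shNC replicate 1. The cause was not tested. As shares of raw counts, which favour longer transcripts, LAMB3 made up 25.3%, 9.72% and 57.9% of the beta chains. Among other laminin chains that had not passed, LAMA2 in shHMGA2-1 reversed to 0.04987 with library totals and, with a library left out, ranged from -0.7358 to 0.4735. LAMA1 ranged from -1.061 to 0.2345 in shHMGA2-2 and from -0.02862 to 0.5587 over the 4 libraries. Scaling by library totals moved the median of all genes in shHMGA2-2 against shNC from 0.03 to 0.15. The other basement membrane genes that passed in shHMGA2-1 went from 15 to 8 and 9 with limma, and the receptors from 11 to 7 with limma on log2(FPKM + 1).

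Replicate numbers did not pair the samples: the correlations of same-numbered deviations were -0.02, 0.001 and -0.14. With a replicate block, 4 of the 9 genes described passed in shHMGA2-1 instead of 5 (LAMB1, edgeR adjusted p = 0.11), and 6, 5 and 1 in the other comparisons, as without it. With crossed numbers in shHMGA2-2, chosen after seeing the data, 6 instead of 5 passed between the knockdown lines and 4 were DEGs. The counts with a block also include LAMA4. Depth limits NID1, NID2 and LAMA4, whose counts were near the floor.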

Other observations

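The genes beside LAMB3 went the opposite way to it in shHMGA2-2. Of the 5 tested genes on each side (chr1:207752037-210676296), 6 of 10 were DEGs with lower levels in shHMGA2-2 than in shNC, where 9.65% of all genes were. Their log2 fold changes had a median of -1.21 and ran from -4.90 (PLXNA2, a semaphorin receptor) to -0.27 (CD34, which did not pass). SERTAD4 was at -2.54 and G0S2, an inhibitor of fat breakdown, at -1.60. In shHMGA2-1, where LAMB3 fell, the median of the same genes was -0.53 and G0S2 was at -3.02.

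Around LAMA5 the 10 tested neighbours had a median of 0.67 in shHMGA2-2 against shNC, and around LAMB1 a median of 0.18, while both laminin genes were lower there. Around LAMA3 the median was 0.11. The genes beside NID1 had a median of -0.70. Neighbouring genes are not independent of each other, and these values are descriptions without a test.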
